A study of Mus musculus with 13 samples.

Results

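The autophagy machinery was followed through RNA sequencing of sorted spinal cord glia as a fixed list of 37 genes, taken by symbol from a deposited table of 39171 genes. All 37 symbols were found there. The study asked how loss of the cytokine encoded by Il33 (interleukin-33, kin to IL-1) alters microglia and astrocytes in the developing cord. Il33 KO mice were compared with their WT littermates, all on C57BL/6. Microglia, the resident macrophages of the cord, were sorted by the surface protein CD11b, and astrocytes by green fluorescent protein under the astrocyte gene Aldh1l1. The 13 libraries fell into 4 groups, namely 3 of KO microglia, 3 of WT microglia, 4 of KO astrocytes and 3 of WT astrocytes. All microglia were of postnatal day 12. KO astrocyte library 2 and WT astrocyte library 3 were of day 9, and the other astrocyte libraries were of day 12. The KO mice lack Il33 in every cell, so a difference in 1 cell type cannot be assigned to the gene's loss in that cell, and the CD11b sort also admits other myeloid cells.

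Autophagy encloses cytoplasm and organelles in a double membrane and delivers them to lysosomes. A kinase complex around Ulk1 starts the process, a phosphatidylinositol 3-kinase complex marks the membrane, Atg9 and Atg2 proteins supply lipid, and enzymes resembling those of ubiquitination attach Atg8 proteins (the LC3 and GABARAP families) to the membrane, where cargo receptors bind them. In macrophages and microglia part of this machinery also lipidates LC3 on phagosomes, and in astrocytes it is known for the turnover of organelles.

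The stretches before the RefSeq start are shown for 5 genes that the results name. No expression value or call uses these sequences. Atg9a led the KO against WT comparison in microglia. Wipi1 and Gabarapl1 were far lower in microglia than in astrocytes, and Gabarap was at a like FPKM in all groups. Atg3 alone among the 31 members searched held the full CLEAR motif. Each stretch is the 250 bases before the start in RefSeq (GRCm38.p6), 5′ to 3′ on the gene's strand. GENCODE release M21 places starts elsewhere. The Wipi1 stretch lies wholly inside the gene's extent there (109573331 to 109611967), and the other stretches lie partly inside theirs, so they may hold transcribed bases. Capitals mark matches to any of 6 motifs searched.
Atg9a (chr1:75192011-75192260, minus strand): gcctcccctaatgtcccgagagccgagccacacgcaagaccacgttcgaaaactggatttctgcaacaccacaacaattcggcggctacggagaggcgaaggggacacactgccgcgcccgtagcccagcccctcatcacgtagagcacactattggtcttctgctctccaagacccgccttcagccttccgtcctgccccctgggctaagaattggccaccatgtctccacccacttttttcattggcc
Wipi1 (chr11:109611390-109611639, minus strand): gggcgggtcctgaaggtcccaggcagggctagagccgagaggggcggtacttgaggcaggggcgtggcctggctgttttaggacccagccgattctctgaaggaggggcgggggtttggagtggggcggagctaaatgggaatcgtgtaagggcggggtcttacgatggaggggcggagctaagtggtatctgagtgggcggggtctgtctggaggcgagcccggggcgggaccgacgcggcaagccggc
Gabarapl1 (chr6:129532942-129533191, plus strand): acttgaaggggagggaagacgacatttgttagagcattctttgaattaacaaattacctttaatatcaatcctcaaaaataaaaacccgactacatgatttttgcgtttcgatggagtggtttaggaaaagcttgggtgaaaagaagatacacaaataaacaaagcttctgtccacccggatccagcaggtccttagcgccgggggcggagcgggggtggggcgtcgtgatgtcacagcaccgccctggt
Gabarap (chr11:69991120-69991369, plus strand): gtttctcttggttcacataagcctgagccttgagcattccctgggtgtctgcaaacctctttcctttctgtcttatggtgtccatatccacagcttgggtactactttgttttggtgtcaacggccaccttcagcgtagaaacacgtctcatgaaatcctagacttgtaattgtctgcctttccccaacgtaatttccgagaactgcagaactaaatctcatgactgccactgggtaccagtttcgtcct
Atg3 (chr16:45158579-45158828, plus strand): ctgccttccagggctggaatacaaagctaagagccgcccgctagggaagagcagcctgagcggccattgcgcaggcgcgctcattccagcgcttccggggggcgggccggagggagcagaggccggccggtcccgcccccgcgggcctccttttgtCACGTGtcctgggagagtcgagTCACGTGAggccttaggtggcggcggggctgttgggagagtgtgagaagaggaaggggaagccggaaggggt

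The motifs were searched on both strands of windows reaching 250 bases before and 50 bases after the RefSeq start. RefSeq windows were matched for 31 of the 37 members, with 34 windows in all, and those not matched were Rb1cc1, Becn1, Pik3c3, Atg12, Atg16l1 and Map1lc3a. The CLEAR motif TCACGTGA, which the lysosomal regulator TFEB is known to bind, was in 1 of 34 windows (2.94%), that of Atg3, against 0.974% of 32851 windows of all genes. Its core CACGTG, which overlaps it, was in 4 windows (11.8%), those of Atg3, Atg5, Atg7 and Atg14, against 7.15% of all. The CRE TGACGTCA was in 2 (5.88%), those of Atg5 and Atg16l2, against 1.79%. The FOXO motif GTAAACA, the PU.1 motif GAGGAAGT and the NF-kB site GGGACTTT were in 0 member windows, against 3.65%, 3.202% and 1.38% of all. These are matches of letters in short windows, and no factor's binding was measured.

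Values were FPKM, fragments scaled to transcript length and library depth, so levels of different genes within a library can be set side by side. The FPKM of a library summed to 1229100 to 1430200 in KO microglia and 1188600 to 1390400 in WT microglia. Astrocyte libraries summed to 1683000 to 2521500 in KO and 2028000 to 3837200 in WT, so the cell types were not on a common total. The absolute depth behind the FPKM is unknown. Il33 was at 0.424 to 2.28 FPKM in KO astrocytes and 96.3 to 113 FPKM in WT astrocytes, and at no more than 0.136 FPKM in KO microglia and 1.26 FPKM in WT microglia. Microglia and astrocyte markers matched the labels. The 12 microglia markers summed to 8370 to 9056 FPKM in KO microglia and 8282 to 8831 FPKM in WT microglia. Astrocytes held 0.741% (KO) and 0.653% (WT) of the level in microglia of their genotype. The 12 astrocyte markers in microglia were at 0.929% (KO) and 0.943% (WT) of their level in astrocytes. The sorts were not free of oligodendrocyte transcripts. The 12 oligodendrocyte markers summed to 5851 to 8271 FPKM in KO astrocytes and 4637 to 6390 FPKM in WT astrocytes. The astrocyte markers there summed to 9483 to 15704 and 9841 to 17729 FPKM. In microglia the oligodendrocyte sums were 1634 to 2680 FPKM (KO) and 1084 to 1835 FPKM (WT). KO microglia libraries correlated with each other at r of 0.848 to 0.889 and WT microglia libraries at 0.760 to 0.806, over genes of at least 1 FPKM on the log2(FPKM + 1) scale. Xist, transcribed from the inactive X, was at 268 and 283 FPKM in WT microglia libraries 1 and 2 and below 1 FPKM in WT library 3 and all 3 KO microglia libraries, so both microglia libraries with Xist were WT. Among astrocytes, KO library 3 held 10.1 FPKM of Xist and KO library 4 held 32.4 FPKM, while WT library 2 held 32.9 FPKM and WT library 3 held 4.10 FPKM. The remaining astrocyte libraries held less than 1 FPKM.

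Most members were expressed in every group. Group means of at least 10 FPKM were found for 17 members in KO microglia, 18 in WT microglia, 20 in KO astrocytes and 20 in WT astrocytes. Gabarap was the most abundant member in all 4 groups, at 134 ± 7.48 FPKM in KO microglia, 134 ± 12.3 in WT microglia, 130.2 ± 15.2 in KO astrocytes and 132 ± 24.7 in WT astrocytes (SD, n = 3, 3, 4 and 3). Ulk2, a kinase that starts autophagy, came next in each, at 123 ± 4.23 FPKM in KO microglia, 131 ± 29.1 in WT microglia and 97.4 ± 29.6 in KO astrocytes. Its 116 ± 95.6 FPKM in WT astrocytes rested on library 2, at 226 FPKM, beside 59.1 and 62.4 in the others. Atg9b, a second Atg9 gene, was the least abundant in all groups, with a highest value of 0.196 FPKM and a listing at 0 in 1 KO microglia, 2 KO astrocyte and 1 WT astrocyte libraries. The median coefficient of variation of the 37 members was 16.8% in KO microglia and 32.7% in WT microglia, and 26.3% in KO astrocytes and 31.2% in WT astrocytes.

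**Figure D1:**
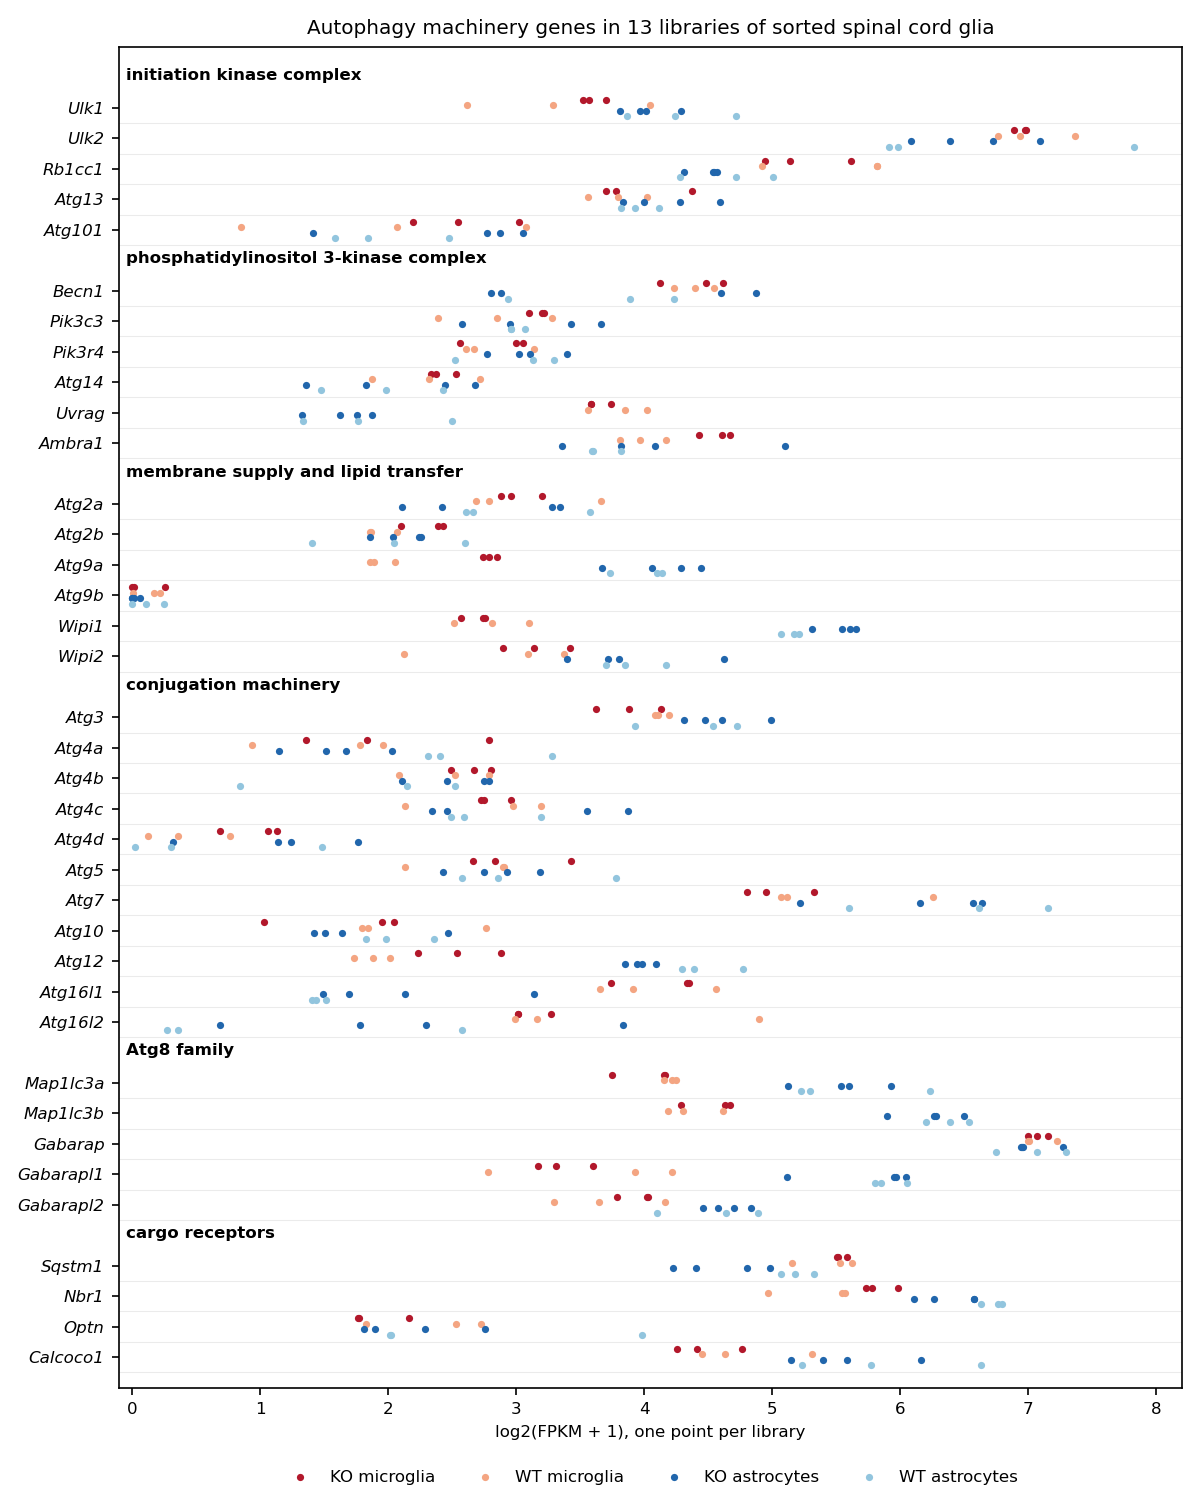
Level of each of the 37 genes in each of the 13 libraries, as log2(FPKM + 1) on the horizontal axis, with genes down the page grouped by role and 1 point per library coloured by group. Gabarap and Ulk2 lie at the high end and Atg9b at the low end, and Wipi1, Map1lc3b and Gabarapl1 show microglia well to the left of astrocytes.

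In microglia, Atg9a, the lipid scramblase that supplies the growing membrane, stood out between genotypes. It was at 6.21, 5.90 and 5.70 FPKM in KO libraries 1 to 3 and at 2.62, 2.71 and 3.14 FPKM in WT libraries 1 to 3. Every KO library lay above every WT library, and the group means of 5.94 ± 0.256 and 2.82 ± 0.280 FPKM (KO and WT, SD, n = 3 each) differed 2.10-fold. On the log2(FPKM + 1) scale the difference was 0.86 (SE 0.18), with an unadjusted p of 0.0033 and a Benjamini-Hochberg adjusted p of 0.448 by limma over 15889 genes. Over the alternatives tried, the adjusted p was 0.214 to 0.955. The exact permutation p was 0.1, the smallest that 3 against 3 libraries allow. In the authors' deposited table for microglia, which lists 483 genes with an adjusted p under 0.05, Atg9a stood at position 2 in the listed order. Its mean normalised counts were 801 in KO and 356 in WT, a ratio of 2.25, with an adjusted p of 1.74e-10 by the authors' test. The part of the uneven Xist in the Atg9a difference was not tested beyond a fit with Xist as a covariate (0.74, adjusted p = 0.214 by limma). Among microglia, Xist was high only in WT libraries 1 and 2. The KO against WT difference in that fit therefore rested largely on WT library 3, and the fit cannot separate Xist from genotype. The annotation places a transcript on the same strand, Gm29253, over 31.8% of the exonic bases of Atg9a, and no value of it was used here.

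Of the 37 genes, 35 passed the filter of a mean of 1 FPKM in microglia, all but Atg4d and Atg9b. None of these 35 was called by limma at an adjusted p under 0.05, where 0.0818% of all genes tested were called. At an unadjusted p under 0.05 there were 3 (Atg9a, Ambra1 and Atg12, all higher in KO), against a background of 7.96% of all genes. Every KO library lay above every WT library for 5 members (Atg9a, Ambra1, Atg2b, Atg12 and Nbr1), beside 8.41% of all genes, and below for 0, beside 7.48%. The median difference of the tested members was 0.096 and that of all genes 0.023 on the log2(FPKM + 1) scale. KO was above WT for 21 of the 35 tested members and for 8308 of 15889 genes. By role, KO was above WT for 3 of 5 tested members of the initiation complex, 5 of 6 of the 3-kinase complex, 3 of 5 of membrane supply, 6 of 10 of conjugation, 2 of 5 of the Atg8 family and 2 of 4 cargo receptors.

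Ambra1, a scaffold that joins Becn1 to the kinase complexes, was at 24.4, 23.4 and 20.6 FPKM in KO microglia and 17.0, 13.1 and 14.7 FPKM in WT microglia. The groups did not overlap, and the difference was 0.58 (SE 0.17, unadjusted p = 0.0143, adjusted p = 0.549 by limma, exact permutation p = 0.1). Atg12, a ubiquitin-like protein that is joined to Atg5, was at 3.72, 6.35 and 4.79 FPKM in KO and 2.33, 3.04 and 2.68 FPKM in WT microglia. These also did not overlap, with a difference of 0.67 (SE 0.24, unadjusted p = 0.0339, adjusted p = 0.596 by limma, exact permutation p = 0.1).

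Atg2a, a lipid transfer protein that works with Atg9a, gave different answers in the deposited files. The authors' deposited table lists it at mean normalised counts of 1211 in KO and 641 in WT microglia, a ratio of 1.89. Its adjusted p by the authors' test was 0.0253, at position 325 in the listed order. Its FPKM were 6.35, 6.76 and 8.18 in KO microglia and 5.42, 5.90 and 11.6 in WT microglia, so that WT library 3 was the highest of all 6 and the ratio of the means was 0.927. The difference was -0.03 (SE 0.31, adjusted p = 0.984 by limma) and was 0.28 without WT library 3 (adjusted p = 0.655). Of 413 listed genes tested here, 4 had FPKM differences of the opposite sign to the authors' table (Slc12a4, Il10rb, Atg2a and Wdfy4). Atg9a and Atg2a were the members in that table, and 1.21% of the genes tested here are listed there as higher in KO. The authors' astrocyte table of 10 genes listed 0 members.

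**Figure D2:**
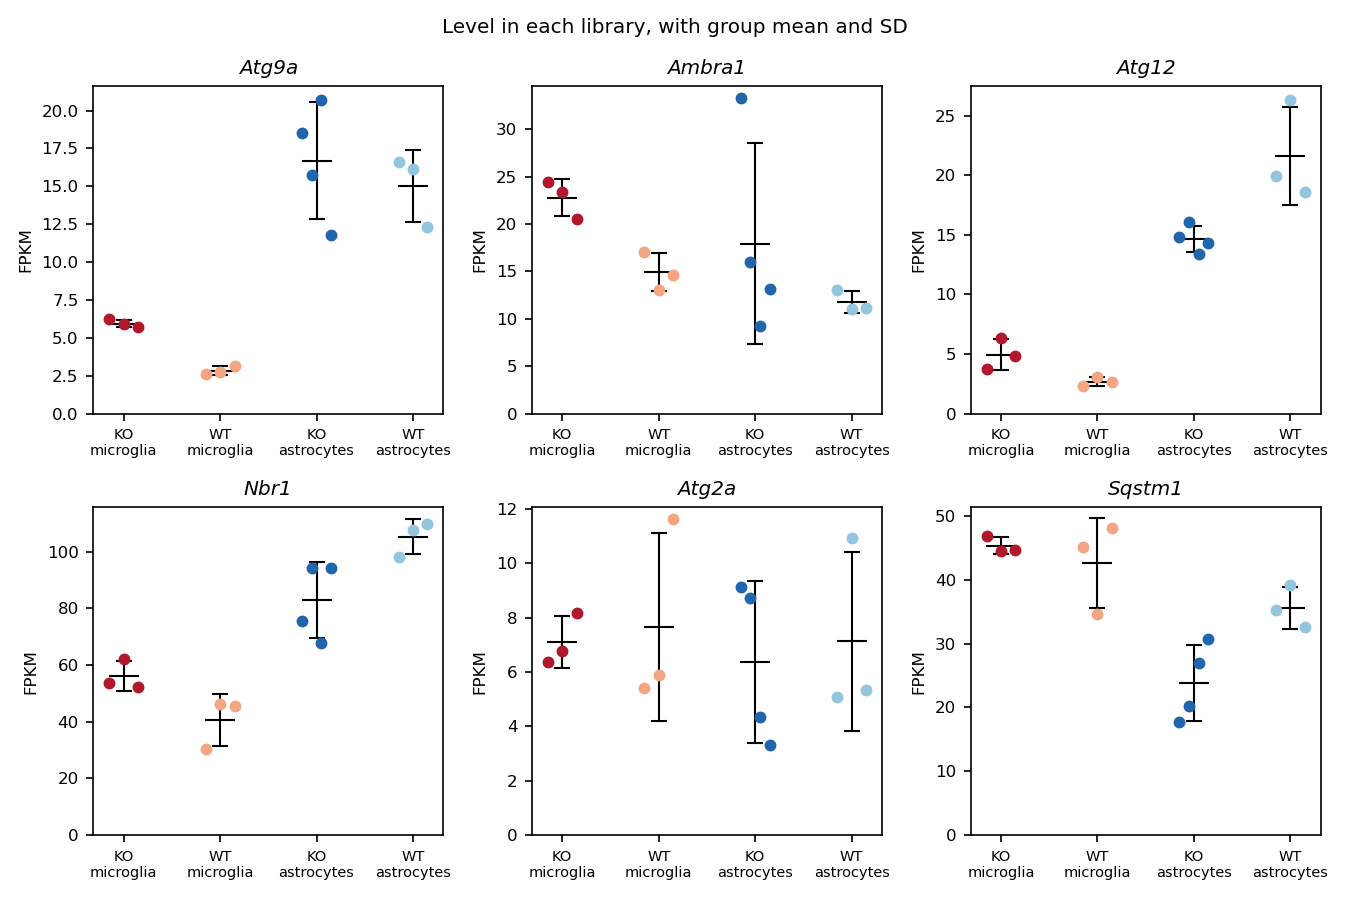
FPKM of 6 members (vertical axis, starting at 0) in each library of the 4 groups, with black bars for the group mean and SD. Atg9a, Ambra1, Atg12 and Nbr1 show KO microglia above WT microglia without overlap, while the 11.6 FPKM of WT microglia library 3 sets the Atg2a mean of that group.

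Other cell types' markers moved with the microglia genotypes. The 12 oligodendrocyte markers summed to 1634 to 2680 FPKM in KO microglia and 1084 to 1835 FPKM in WT microglia, and 7 of 12 were higher in KO at an unadjusted p under 0.05, with 0 called by limma. Of these markers only Opalin was listed at 0 in any microglia library, in 2 of the WT group. The 10 neutrophil markers summed to 60.5 to 122 FPKM in KO and 136 to 268 FPKM in WT microglia, the 8 monocyte markers to 13.4 to 24.8 and 17.2 to 53.0 FPKM, and the 10 border macrophage markers to 780.2 to 884 and 849 to 1755 FPKM. Immediate-early genes summed to 2777 to 3210 FPKM in KO microglia and 4293 to 5911 FPKM in WT microglia, and mitochondrial transcripts to 30503 to 49669 and 52911 to 84550 FPKM. The authors' deposited table for microglia lists Cldn11 and Mag as higher in KO, and S100a8 and Ccr2 as lower. It lists the immediate-early genes Junb, Zfp36, Dusp1, Ier3 and Jun and the mitochondrial ND5, ND6 and ATP8 as lower in KO. Among astrocyte and neuron markers it lists Gfap as higher, and Gjb6 and Snap25 as lower. In bulk libraries of this kind, fewer cells of a type and less RNA per cell cannot be told apart. The part of these differences in the values of Atg9a, Ambra1 and Atg12 was not tested.

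In astrocytes, 36 members passed the filter, all but Atg9b. None of the 36 was called by limma in KO against WT astrocytes, with age as a covariate, where 0.0224% of all genes were called. At an unadjusted p under 0.05 there were 3 (Atg4a, Sqstm1 and Atg12, all lower in KO), beside 4.19% of all genes. The median difference was -0.014 over the members and 0.0013 over all genes. Every KO library lay above every WT library for 1 member (Wipi1), beside 2.32% of all genes, and below for 4 (Atg4a, Atg12, Sqstm1 and Nbr1), beside 2.36%.

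Atg4a, a protease that trims Atg8 proteins, was at 3.08, 1.86, 2.18 and 1.21 FPKM in KO astrocytes and 3.96, 8.73 and 4.31 FPKM in WT astrocytes. The groups did not overlap, and WT library 2 was the highest. Atg4a lies on the X chromosome, Xist was uneven among these libraries, and its part in the values was not tested. The difference was -1.10 (SE 0.40, unadjusted p = 0.0290, adjusted p = 0.921 by limma), and the exact permutation p of 0.0286 is the smallest that 4 against 3 libraries allow. Sqstm1, the cargo receptor p62, was at 17.7, 20.2, 26.9 and 30.7 FPKM in KO and 35.2, 39.1 and 32.5 FPKM in WT astrocytes, again without overlap. Its difference was -0.61 (SE 0.23, unadjusted p = 0.0355, adjusted p = 0.921 by limma, exact permutation p = 0.0571). Atg12 was at 14.8, 16.1, 13.4 and 14.3 FPKM in KO and 20.0, 26.3 and 18.6 FPKM in WT astrocytes, with a difference of -0.52 (SE 0.22, unadjusted p = 0.0457, adjusted p = 0.921 by limma, exact permutation p = 0.0286). In the day 12 libraries alone (3 KO, 2 WT) the differences were -1.18 for Atg4a, -0.58 for Sqstm1 and -0.66 for Atg12, with an adjusted p of 0.809 by limma for each, and day 9 held 1 library a genotype. By role, KO was above WT for 2 of 5 tested members of the initiation complex, 5 of 6 of the 3-kinase complex, 3 of 5 of membrane supply, 6 of 11 of conjugation, 2 of 5 of the Atg8 family and 0 of 4 cargo receptors. Over all 36 tested members KO was above WT for 18, and over all genes for 6719 of 13397. Of the receptors, Optn and Calcoco1 changed sign with 1 library left out, at -1.09 to 0.09 and -0.60 to 0.24. Endothelial markers summed to 21.2 to 25.3 FPKM in KO and 35.7 to 71.5 FPKM in WT astrocytes, and their part in these values was not tested.

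**Figure D3:**
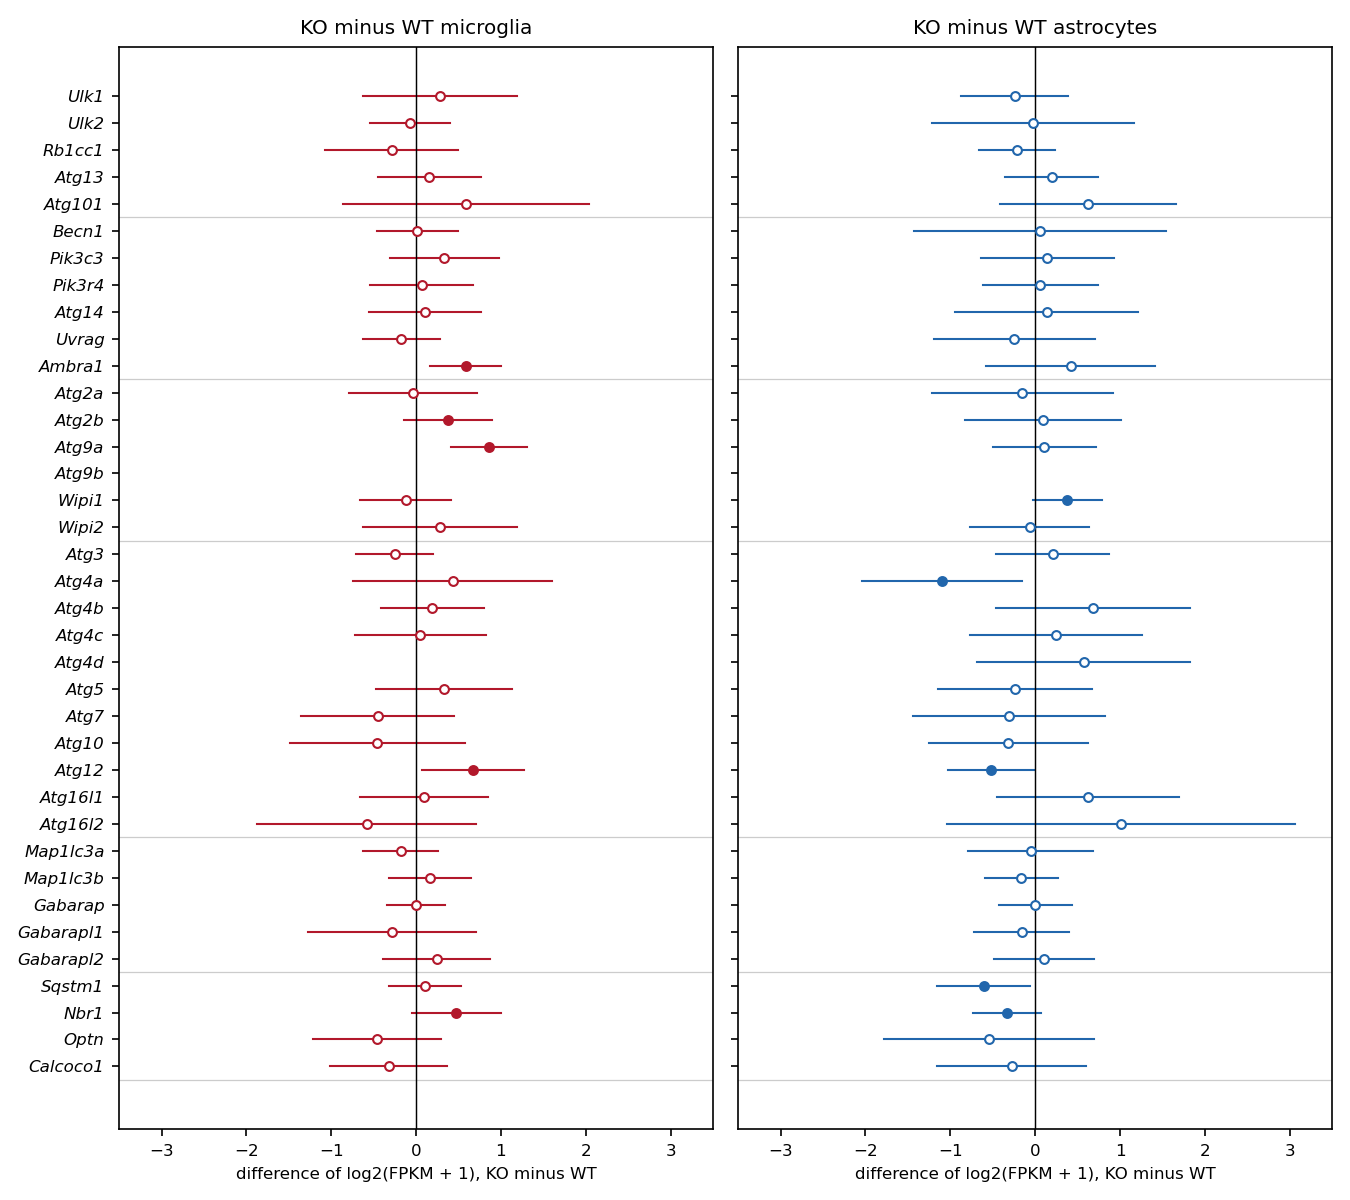
KO minus WT difference of log2(FPKM + 1) for each tested gene (horizontal axis) with its 95% confidence interval, microglia on the left and astrocytes on the right, with genes down the page by role. Filled points mark genes whose KO and WT libraries do not overlap, 5 in microglia and 5 in astrocytes, and Atg9a at 0.86 is the highest in microglia.

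Whether the genotype difference itself differed between the cell types was tested in a fit of all 13 libraries. None of 35 tested members was called by limma, where 0.141% of all genes were called, and 5 had an unadjusted p under 0.05, beside 6.62%. Atg12 had the smallest p, with a difference of differences of 1.20 (SE 0.30, unadjusted p = 0.0022, adjusted p = 0.396), since KO lay above WT in microglia and below it in astrocytes. The other 4 were Nbr1 (0.81), Atg9a (0.75), Atg4a (1.53) and Sqstm1 (0.71), with adjusted p of 0.673 to 0.751. Nbr1, a cargo receptor related to Sqstm1, was at 53.8, 62.1 and 52.2 FPKM in KO microglia and 30.2, 46.4 and 45.6 FPKM in WT microglia, and at 75.7, 94.3, 67.9 and 94.4 FPKM in KO astrocytes and 98.3, 108 and 109.989 FPKM in WT astrocytes. Its KO libraries thus lay above the WT ones in microglia and below them in astrocytes. The microglia and astrocyte comparisons share no library.

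The cell types differed far more than the genotypes. In WT mice, 12 of 35 tested members differed between microglia and astrocytes at an adjusted p under 0.05 (34.3%). The 3 higher in microglia were Atg16l1, Atg16l2 and Uvrag (8.57%, where 29.1% of all genes were called higher), and the 9 lower were Atg12, Gabarapl1, Wipi1, Atg9a, Map1lc3b, Map1lc3a, Nbr1, Wipi2 and Gabarapl2 (25.7%, where 24.5% of all genes were called lower). In KO mice, 13 of 35 were called (37.1%), 3 higher (Uvrag, Atg16l1 and Sqstm1, against 31.9% of all genes) and 10 lower (against 25.1%). In both genotypes, 2 members were called higher and 8 lower. The share of all genes called in both genotypes was not counted, so these counts have no background beside them. The median difference of the members in WT was -0.23 and that of all genes 0.21, and quantile normalisation moved these to -0.55 and -0.06, so the members' median lay 0.44 below that of all genes on the deposited scale and 0.49 below it after quantile normalisation. The split of the WT calls was 3 higher and 9 lower on the deposited scale and 2 higher and 12 lower after quantile normalisation. Quantile normalisation lowered the median of all genes too. The shares of all genes called in each direction after it are not given, so the change in split is not read as a trait of the members.

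**Figure D4:**
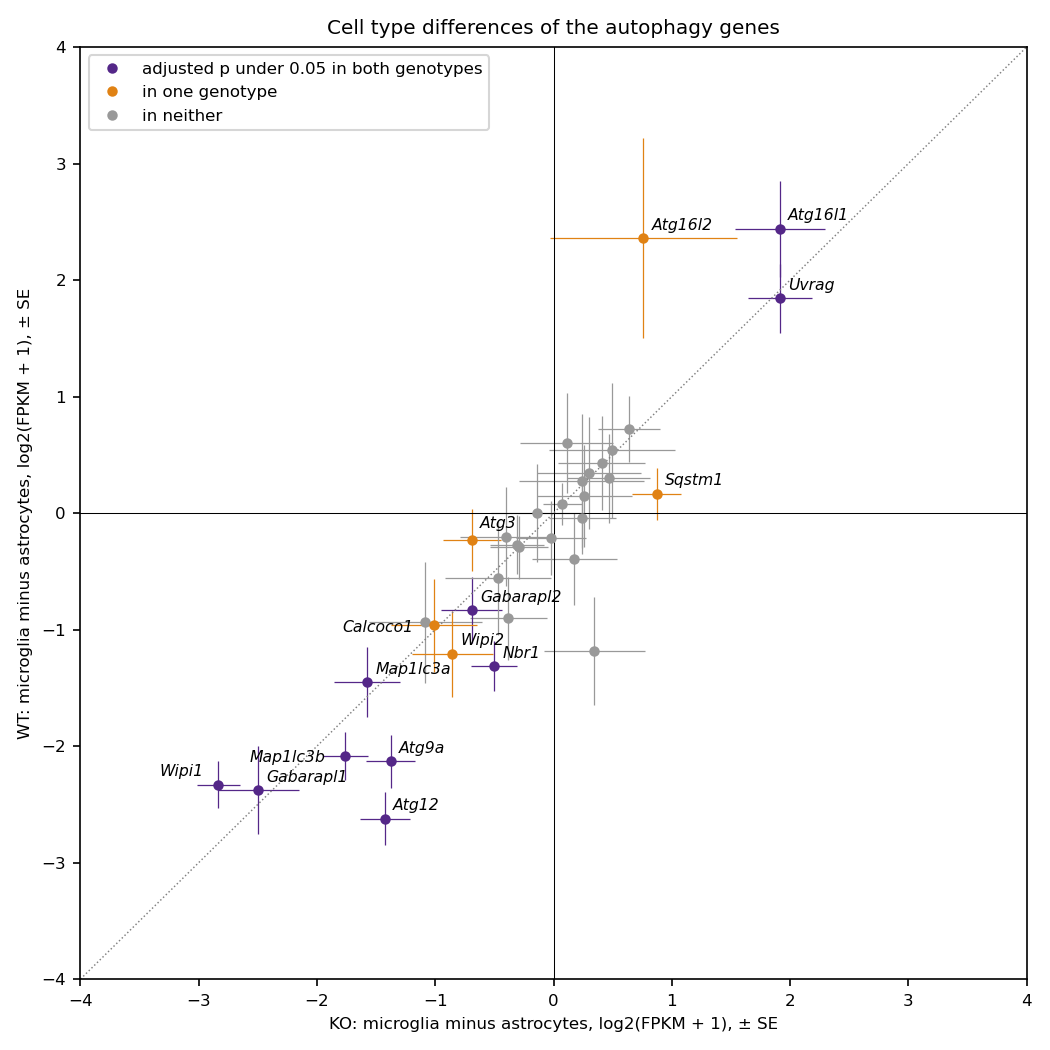
Microglia minus astrocytes difference of log2(FPKM + 1) of each tested member in KO mice (horizontal) and WT mice (vertical), with bars for the SE and the dotted line where both are equal. Uvrag and Atg16l1 lie at the upper right and Wipi1, Gabarapl1, Map1lc3b, Atg9a and Atg12 at the lower left, with Atg16l2 far from the line.

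In the 3-kinase complex, Uvrag, the subunit that replaces Atg14 in complexes of the endocytic pathway, rose in microglia. It was at 11.002, 10.97 and 12.4 FPKM in KO microglia and 2.39, 1.51, 2.67 and 2.08 FPKM in KO astrocytes. In WT it was at 15.2, 13.4 and 10.8 FPKM in microglia and 4.66, 1.53 and 2.40 FPKM in astrocytes. Every microglia library lay above every astrocyte library, with differences of 1.91 (SE 0.27, adjusted p = 0.000149 by limma) in KO and 1.84 (SE 0.30, adjusted p = 0.000382 by limma) in WT. Atg14 itself, at 4.34 ± 0.390 FPKM in KO microglia and 3.49 ± 1.75 in KO astrocytes (SD, n = 3 and 4), was not called, nor were Becn1, Pik3c3, Pik3r4 and Ambra1. An antisense transcript, Gm45187, covers 17.6% of the exonic bases of Uvrag, and whether the counting used strand is not given in the sources used here.

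Among the conjugation genes, Atg16l1, which guides the Atg5-Atg12 conjugate to membranes, rose in microglia, and Atg12 fell. Atg16l1 was at 12.4, 19.4 and 19.2 FPKM in KO microglia and 3.39, 1.81, 7.81 and 2.24 FPKM in KO astrocytes. In WT it was at 14.1, 11.6 and 22.7 FPKM in microglia and 1.86, 1.66 and 1.71 FPKM in astrocytes. The groups did not overlap, with differences of 1.91 (SE 0.38, adjusted p = 0.00140 by limma) in KO and 2.44 (SE 0.41, adjusted p = 0.000520 by limma) in WT.

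Atg12 went the other way, at 3.72 to 6.35 FPKM in KO microglia against 13.4 to 16.1 FPKM in KO astrocytes, and 2.33 to 3.04 FPKM in WT microglia against 18.6 to 26.3 FPKM in WT astrocytes. The differences were -1.43 (SE 0.21, adjusted p = 0.000187 by limma) in KO and -2.62 (SE 0.23, adjusted p = 4.15e-06 by limma) in WT, without overlap in either. Its partner Atg5 was not called in either genotype.

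Atg16l2, a paralog of Atg16l1, was uneven. It was at 7.08, 8.64 and 7.09 FPKM in KO microglia and 13.3, 2.44, 0.610 and 3.92 FPKM in KO astrocytes, which overlap. In WT it was at 28.8, 6.94 and 7.96 FPKM in microglia and 4.96, 0.212 and 0.281 FPKM in astrocytes, which do not overlap. The WT difference of 2.36 (SE 0.86, adjusted p = 0.0392 by limma) was lost when any of 9 libraries was left out. These were all 3 KO microglia libraries, WT microglia 1 and 3, KO astrocytes 2 and 4, and WT astrocytes 2 and 3, with an adjusted p of 0.0509 to 0.194, the highest without WT astrocyte library 2 (difference 1.63). It was also lost without a filter on low values (0.0731) and after quantile normalisation (1.80, adjusted p = 0.0771).

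Of the remaining conjugation genes, only Atg3 in KO was called. Atg7, the activating enzyme of both conjugation systems, was the most abundant of them, at 32.0 ± 6.33 FPKM in KO microglia and 74.6 ± 28.5 in KO astrocytes, and 47.2 ± 24.4 in WT microglia and 95.4 ± 47.0 in WT astrocytes. It was not called in either genotype, with adjusted p of 0.0747 in KO and 0.153 in WT, but was called in KO without KO astrocyte library 3 (0.0237) or WT astrocyte library 1 (0.0387), and in WT without WT astrocyte library 1 (0.0418). Atg3, which transfers Atg8 proteins to lipid and whose start window holds both capitalised motifs above, was at 16.5, 13.8 and 11.3 FPKM in KO microglia and 18.9, 23.4, 21.2 and 30.8 FPKM in KO astrocytes. It was called in KO (-0.69, SE 0.25, adjusted p = 0.0335 by limma) and not in WT (-0.23, adjusted p = 0.487), and the KO call was lost without KO microglia library 2 (0.0771) or 3 (0.122) or KO astrocyte library 3 (0.0528) or 4 (0.104).

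Among the membrane genes, Wipi1, a reader of phosphatidylinositol 3-phosphate, showed the lowest microglia level relative to astrocytes in KO. It was at 5.75, 4.92 and 5.69 FPKM in KO microglia and 49.4, 45.7, 38.7 and 47.7 FPKM in KO astrocytes, 12.03% of the astrocyte mean. In WT it was at 7.59, 6.03 and 4.71 FPKM in microglia and 36.0, 32.6 and 35.0 FPKM in astrocytes, 17.7%. Neither pair overlapped, and the differences were -2.83 (SE 0.18, adjusted p = 3.70e-07 by limma) and -2.33 (SE 0.20, adjusted p = 3.82e-06 by limma).

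Atg9a fell in microglia relative to astrocytes as well. KO microglia, whose values are given above, held 35.6% of the mean of KO astrocytes, which were at 18.5, 15.7, 20.7 and 11.8 FPKM. WT microglia held 18.8% of the mean of WT astrocytes, which were at 16.6, 16.1 and 12.3 FPKM. The differences were -1.38 (SE 0.21, adjusted p = 0.000233 by limma) in KO and -2.13 (SE 0.23, adjusted p = 1.93e-05 by limma) in WT. Wipi2, a paralog of Wipi1 that recruits Atg16l1, was called in WT (-1.21, SE 0.37, adjusted p = 0.0181 by limma) and not in KO (-0.85, adjusted p = 0.0519). Its WT call was lost without WT microglia library 2 (0.0563) or WT astrocyte library 2 (0.0635), and it was called in KO without WT microglia library 1 (0.0419) or 2 (0.0217). Atg2a and Atg2b were not called in either genotype.

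The Atg8 family shifted in makeup. Its 5 genes summed to 195 ± 9.25 FPKM in KO microglia and 331 ± 34.5 FPKM in KO astrocytes, and to 196 ± 16.9 FPKM in WT microglia and 346 ± 18.5 FPKM in WT astrocytes (SD, n = 3, 4, 3 and 3). Gabarap made up 68.5% ± 0.589 of that sum in KO microglia and 39.4% ± 3.54 in KO astrocytes, and 68.3% ± 0.598 in WT microglia and 38.1% ± 6.36 in WT astrocytes. Its own FPKM was close in the cell types, at 141, 133 and 126 FPKM in KO microglia, 148, 127 and 127 in WT microglia, 153, 122, 123 and 123 in KO astrocytes and 133, 107 and 156 in WT astrocytes. The family sums and the Gabarap values were not scaled to a common total of FPKM, which was higher in astrocyte libraries. The Gabarap difference was 0.07 in KO and 0.08 in WT (adjusted p = 0.733 and 0.755 by limma, 95% interval in WT of -0.33 to 0.48), and in WT it was -0.23 after quantile normalisation, which also moved the median of all genes.

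The other 4 family members fell in microglia in both genotypes. Map1lc3b, the LC3 form most used as an autophagosome marker, was at 24.4, 23.8 and 18.6 FPKM in KO microglia against 89.5, 58.4, 75.8 and 76.8 FPKM in KO astrocytes, and at 23.5, 18.8 and 17.2 FPKM in WT microglia against 72.6, 91.9 and 83.0 FPKM in WT astrocytes. No microglia library reached any astrocyte library, with differences of -1.76 (SE 0.19, adjusted p = 1.87e-05 by limma) in KO and -2.09 (SE 0.21, adjusted p = 1.10e-05 by limma) in WT. Gabarapl1 was at 11.1, 7.99 and 8.93 FPKM in KO microglia against 61.4, 33.7, 60.9 and 65.1 FPKM in KO astrocytes, and at 17.6, 5.85 and 14.2 FPKM in WT microglia against 54.7, 56.5 and 65.4 FPKM in WT astrocytes. Its differences of -2.50 (SE 0.34, adjusted p = 0.000114 by limma) and -2.38 (SE 0.37, adjusted p = 0.000323 by limma) in KO and WT also came without overlap. The transcript 1700101I11Rik on the other strand covers 28.3% of its exonic bases and averaged 0.400 FPKM over the 13 libraries.

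Map1lc3a, a second LC3 gene, was at 12.4, 16.9 and 16.8 FPKM in KO microglia against 33.9, 47.4, 45.5 and 59.8 FPKM in KO astrocytes, and at 17.6, 16.8 and 17.97 FPKM in WT microglia against 38.2, 74.1 and 36.4 FPKM in WT astrocytes. The groups did not overlap, and the differences were -1.58 (SE 0.28, adjusted p = 0.000629 by limma) in KO and -1.45 (SE 0.30, adjusted p = 0.00198 by limma) in WT. Gabarapl2 was the closest of the 4, at 15.2, 12.8 and 15.3 FPKM in KO microglia against 27.5, 22.9, 25.1 and 21.0 FPKM in KO astrocytes, and at 8.83, 16.9 and 11.5 FPKM in WT microglia against 28.6, 16.1 and 23.9 FPKM in WT astrocytes. The KO groups did not overlap and the WT groups did.

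Its differences were -0.69 (SE 0.26, adjusted p = 0.0401 by limma) in KO and -0.83 (SE 0.28, adjusted p = 0.0281 by limma) in WT. The KO call was lost without any 1 of the KO microglia libraries or of KO astrocyte libraries 1 to 3, with adjusted p of 0.05 to 0.120. The WT call was lost without WT microglia library 1 or 3, KO astrocyte library 2, or WT astrocyte library 1 or 3, with adjusted p of 0.0568 to 0.147.

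**Figure D5:**
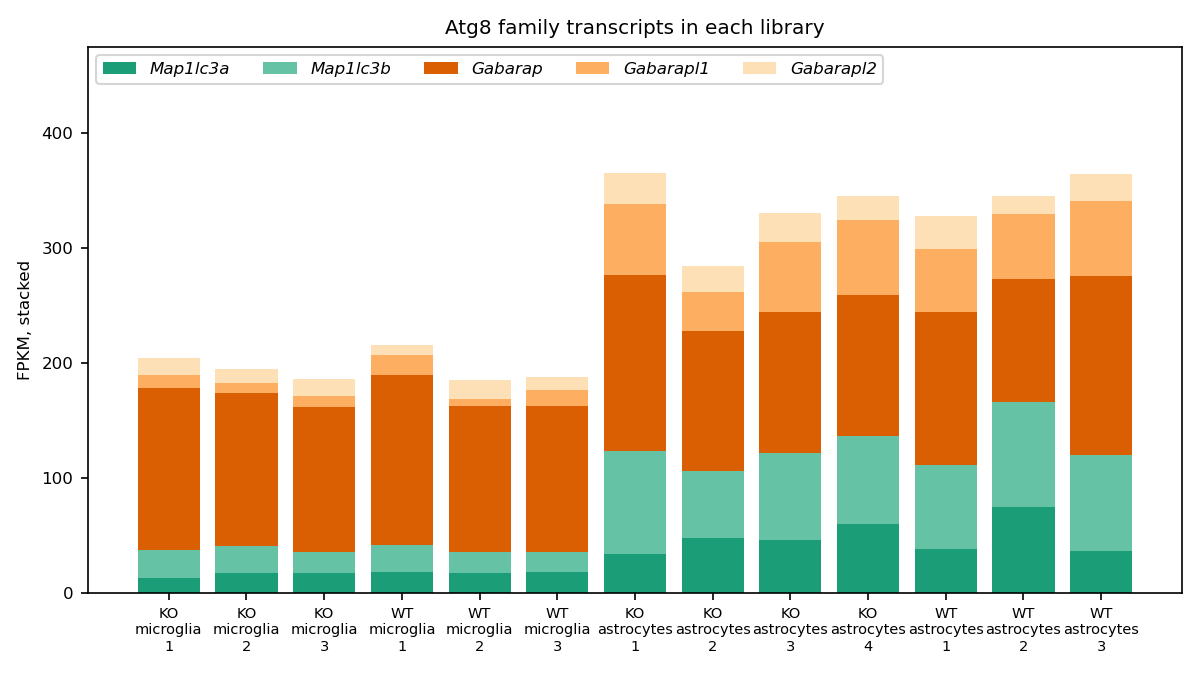
Stacked FPKM of the 5 Atg8 family genes in each of the 13 libraries (vertical axis from 0). Gabarap forms a band of like height in all libraries, and the other 4 genes are thicker in the astrocyte libraries, whose family sums run from 284 to 365 FPKM, beside 185 to 216 FPKM in microglia.

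Of the cargo receptors, Nbr1 fell in microglia in both genotypes, with differences of -0.50 (SE 0.19, adjusted p = 0.0461 by limma) in KO and -1.31 (SE 0.21, adjusted p = 0.000387 by limma) in WT. The KO call was lost without any 1 of the KO microglia libraries, KO astrocyte libraries 1, 2 or 4, or the WT astrocyte libraries, with adjusted p of 0.0559 to 0.131. Sqstm1 was at 46.9, 44.5 and 44.7 FPKM in KO microglia against 17.7 to 30.7 FPKM in KO astrocytes, and at 45.1, 34.6 and 48.2 FPKM in WT microglia against 32.5 to 39.1 FPKM in WT astrocytes. It was called higher in microglia in KO (0.87, SE 0.21, adjusted p = 0.00420 by limma) and not in WT (0.17, adjusted p = 0.553), and the test of the difference between genotypes did not pass (0.71, adjusted p = 0.751 by limma). The gene Mrnip covers 17.3% of its exonic bases from the other strand. Calcoco1 was called in KO (-1.01, SE 0.36, adjusted p = 0.0347 by limma) and not in WT (-0.96, adjusted p = 0.0609). Its KO call was lost without KO microglia library 1 or 3, KO astrocyte library 1, 2 or 3, or WT astrocyte library 3 (adjusted p of 0.0590 to 0.103), and it was called in WT without WT microglia library 3, KO astrocyte library 2, or WT astrocyte library 1 or 3 (0.0280 to 0.0426).

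No member of the initiation complex was called between the cell types in either genotype. Ulk1 was at 11.1 ± 0.798 FPKM in KO microglia and 15.3 ± 2.30 in KO astrocytes, and 9.81 ± 5.27 in WT microglia and 18.9 ± 5.90 in WT astrocytes. Rb1cc1, the scaffold FIP200, was at 37.2 ± 9.48 in KO microglia and 21.5 ± 1.81 in KO astrocytes, and 46.7 ± 15.1 in WT microglia and 24.9 ± 6.38 in WT astrocytes (SD, n = 3, 4, 3 and 3), with adjusted p of 0.0567 and 0.0530 in KO and WT. With 1 library left out, Rb1cc1 was called in KO without KO microglia library 3 (0.0494) or WT microglia library 1 (0.0170), and in WT without KO microglia library 1 (0.0472) or WT microglia library 1 (0.00450). In the same way Ulk1 was called in WT without WT microglia library 2 (0.00703) or WT astrocyte library 1 (0.0432), Ulk2 in WT without WT astrocyte library 2 (0.0142), Atg4a in WT without any of 4 libraries (0.0371 to 0.0474) and Ambra1 in KO without KO astrocyte library 1 (0.00843). The oligodendrocyte markers summed to 5851 to 8271 FPKM in KO astrocytes and 4637 to 6390 FPKM in WT astrocytes, above the microglia sums given before. Immediate-early genes summed to 2777 to 5911 FPKM in microglia and 61.4 to 89.2 FPKM in astrocytes. Mitochondrial transcripts summed to 30503 to 84550 FPKM in microglia and 110390 to 442880 FPKM in astrocytes. The part of these 3 measures in the cell type differences was not tested.

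Genes around the machinery were counted from 5 lists. Between KO and WT microglia, limma called 0 of 25 tested nutrient and transcriptional regulators, 0 of 16 further core genes, 0 of 15 fusion genes, 0 of 15 genes of mitochondrial and ER autophagy and 0 of 6 genes of the LC3-associated phagocytosis oxidase. At an unadjusted p under 0.05 there were 2, 0, 0, 2 and 0, beside 7.96% of all genes. Ncoa4, the receptor for ferritin, had the smallest p, at 17.1 ± 3.04 FPKM in KO and 7.25 ± 1.70 in WT microglia (SD, n = 3 each), a difference of 1.15 (SE 0.24, unadjusted p = 0.0029, adjusted p = 0.428 by limma). Fundc1, a mitophagy receptor, was at 13.0 ± 0.907 and 20.0 ± 4.88 FPKM, and Sesn2, a leucine sensor upstream of mTORC1, at 2.38 ± 0.678 and 0.828 ± 0.445 FPKM in KO and WT. Akt1s1, an mTORC1 subunit, was at 9.74 ± 2.71 FPKM in KO and 14.7 ± 0.760 FPKM in WT microglia (adjusted p = 0.596 by limma for each of these 3). In the other lists the smallest p were those of Smcr8 (0.63) and Vmp1 (-0.25), Vps16 (-0.37) and Stx17 (0.32), and Ncf1 (-0.22) and Ncf4 (-0.47), values being log2 differences with adjusted p of 0.596 to 0.734. In astrocytes 0 genes of the 5 lists were called, with 2, 0, 0, 1 and 1 at an unadjusted p under 0.05, beside 4.19% of all genes.

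Between WT microglia and WT astrocytes the same lists gave 7 higher and 8 lower of 26 regulators, 4 and 4 of 16 further core genes, 5 and 3 of 15 fusion genes, 3 and 7 of 15 mitochondrial and ER genes and 6 and 0 of 6 oxidase genes, beside 29.1% higher and 24.5% lower of all genes. In KO the counts were 10 and 9, 6 and 4, 4 and 3, 3 and 7, and 6 and 0, beside 31.9% and 25.1% of all genes. Most of these counts lie near the shares over all genes. All 6 subunits of the oxidase, known as a phagocyte enzyme, were higher in microglia in both genotypes, Ncf1 for example at 136 ± 3.30 FPKM in WT microglia and 0.283 ± 0.219 FPKM in WT astrocytes.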

How the data were processed

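Total RNA of sorted cells was extracted with TRIZOL, treated with DNase and cleaned on columns, and libraries were made with NuGEN RNA-Seq V2, per the labels' protocols. The submitters' processing notes name the build GRCm38 and the tools Cuffnorm, Cufflinks, DESeq2, HTSeq 0.6.1p1, Bowtie2 2.2.3, TopHat2 2.0.11 and FastQC. No source used here gives their settings or strand handling. The authors deposited FPKM per gene and library. The authors also deposited, for each cell type, a table of genes with an adjusted p under 0.05, holding the signal (mean normalised counts) of each genotype, log2 fold changes, the test score (Wald statistic) and p-values, per the file headers. Those log2 fold changes run WT over KO and are not printed. Genes were placed with GENCODE release M21 (GRCm38), which held 96.0% of the identifiers.

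Tests of differences used limma 3.58.1 under R 4.3.3 (two-sided moderated tests, lmFit and trended eBayes) on log2(FPKM + 1), which understates changes of low genes, for genes with a mean of at least 1 FPKM, with Benjamini-Hochberg adjustment over all genes tested and calls at 0.05. One fit held the 3 KO and 3 WT microglia, another the 4 KO and 3 WT astrocytes with a term for age, and cell types and the difference of genotype effects in all 13 libraries with age. The exact permutation tests on FPKM are two-sided and ignore age. Count tests do not suit FPKM and were left out, and the depth of each library is unknown. The fits were tested on simulated data with equal spread in the groups. An earlier simulation with each group's own spread gave more false calls and too many low p-values among unchanged genes, so calls may be too many where spreads differ, and WT microglia varied more than KO microglia. In the genotype fits the simulation with equal spread found almost none of the genes changed 2-fold, so 0 calls between genotypes is weak evidence that members did not change. Replicates are biological per the series' design text, and whether same-numbered libraries pair is not settled. Astrocyte libraries numbered 2 and 3 differ in age between the genotypes. The sex of the mice was not labelled.

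Named with every library's value were members called between genotypes, in the authors' deposited tables or with the 3 smallest p per genotype comparison, the 4 largest WT cell type calls per direction, and the Atg8 family. Members that the cell type calls add, and Nbr1, were given because their calls or values are discussed and were chosen after their values were seen. Of each further list, the 2 smallest p between KO and WT microglia are named. The members, lists and rules were chosen with earlier results of these data known, and the promoter motifs after the first look at the files. Alternatives were another pseudocount (0.1), no filter, quantile normalisation, protein-coding genes only, a replicate block, other covariates and leaving out each library.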

Additional observations from a re-analysis of the deposited data

Results flagged for a closer look

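In a group of 4 libraries, a value was looked at again where its gap to the nearest other value exceeded Dixon's 95% critical value for the group's size. The KO astrocytes were the group of that size, 37 members were examined in them, and chance gives about 1 in 20 such groups. There were 4 values. Rb1cc1 in KO astrocyte library 2 (day 9) was at 18.8 FPKM, below 22.3, 22.3 and 22.7 FPKM in the other libraries. Gabarapl1 in the same library was at 33.7 FPKM, below 60.9 to 65.1 FPKM in the others. Atg10, an enzyme that transfers Atg12 to Atg5, was at 4.52 FPKM in KO astrocyte library 3, above 1.68 to 2.11 FPKM in the others. Gabarap was at 153 FPKM in KO astrocyte library 1, above 122 to 123 FPKM in the others. WT astrocyte library 3, also of day 9, was at 18.4 FPKM of Rb1cc1 and 65.4 FPKM of Gabarapl1. No cause of these values was tested.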

How the results depend on the processing

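The count of members called stayed within 1.5 times of that reported under every alternative run, namely 0 in each genotype comparison and in the difference between cell types, 11 to 16 in WT (12 reported) and 10 to 15 in KO (13 reported). Over all genes the KO against WT microglia calls, 13 as reported, were 2 with protein-coding genes only, 3 with a replicate block, 7 without a filter, 25 with a pseudocount of 0.1, 37 in the fit of all 13 libraries, 258 with Xist as a covariate and 18 to 48 with 1 library left out. In the comparison of genotype differences, the 23 calls over all genes were 2 with protein-coding genes only, 14 with a replicate block, 37 without a filter and 15 to 75 with 1 library left out, and the 3 in astrocytes were 0 to 8 over all alternatives. The replicate block gave 13 members in WT and 10 in KO, and ended the WT call of Gabarapl2 (adjusted p = 0.0642 by limma). Same-numbered microglia libraries deviated together with r of 0.00986 to 0.0276, and differently numbered ones with -0.0225 to -0.000126. In astrocytes r was -0.0783 to 0.0209 for the same number and -0.0587 to 0.126 for different numbers. The 0.126 was that of KO library 2 and WT library 3, both of day 9. Same-numbered astrocyte libraries 2 and 3 differ in age between genotypes, so those numbers do not join libraries of the same age. For the other numbers, with so few libraries a group, these values cannot settle whether the numbers pair the libraries.

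The direction turned for Atg2a between genotypes (-0.21 to 0.28 with 1 microglia library left out, and 0.034 without KO library 1) and for Gabarap between WT cell types (-0.23 with quantile normalisation, and -0.10 to 0.16 with 1 library left out), and the cause was not tested. With Xist as a covariate, Atg9a was 0.74 (adjusted p = 0.214 by limma) and Atg2a -0.71 (adjusted p = 0.233 by limma). Both values rest largely on WT microglia library 3, the WT microglia library with low Xist, as do the calls over all genes in that fit. The depth of the libraries is unknown, and with 3 or 4 libraries a group, p-values rest on few residual degrees of freedom.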

Other observations

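The WT astrocyte library 2 held the highest value of all 13 libraries for 10 of the 37 members, more than any other library, where the next held 5. Among them were Ulk2 at 226 FPKM, Atg7 at 142 FPKM, Calcoco1 at 97.8 FPKM, Optn, a receptor for damaged mitochondria, at 14.8 FPKM and Atg5 at 12.8 FPKM. The other WT astrocyte libraries were at 47.5 and 97.1 FPKM of Atg7 and 36.6 and 53.6 FPKM of Calcoco1. Within its group it was not set apart in this way, being highest for 16 members and lowest for 13, while library 1 was highest for 15 and lowest for 15. WT astrocyte library 2 also held the highest sums of mitochondrial transcripts (442880 FPKM) and of astrocyte markers (17729 FPKM). The share of all genes with their highest value in it was not counted, so its rank is not read as a trait of the members. The groups of 3 libraries were not tested for a library that stands apart.

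Within the Atg16 genes, Atg16l1 made up 63.6% to 73.0% of their summed FPKM in KO microglia and 32.8% to 74.0% in WT microglia, with Atg16l2 making up the rest. The Atg9 genes were almost wholly Atg9a in every library, with at least 94.1% of the summed FPKM.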
